A study of Homo sapiens with 12 samples.

Results

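The 53 genes described here encode the core machinery that copies DNA in human cells, from the proteins that mark origins to those that unwind, prime, copy and join the strands. They were chosen by name: a gene counted where a probe set carried its symbol and no other, and where several probe sets did, the one with the highest mean over the 12 arrays was used. All 53 were found among the 18417 genes measured in this way. Expression was measured on Affymetrix arrays in pancreatic ductal adenocarcinoma cell lines, with 3 arrays in each of 4 groups. AsPC1-R and BxPC3-R are derivatives, resistant to cisplatin, of the parental lines AsPC1 and BxPC3. Cisplatin, a platinum drug that crosslinks DNA, was present at 1.67 µM while AsPC1-R was maintained and at 0.60 µM for BxPC3-R, while no drug is named for the parental lines. RNA of all 4 groups came from subconfluent cultures without the drug, since the derivatives had their last passage in drug-free medium. Each derivative is 1 line, so a change from the parental line cannot be told apart from a property of that derivative. Nothing says that the 3 samples of a group were separate cultures, so a p-value reflects just the variation among these arrays, which may be technical.

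Replication starts at origins bound by the origin recognition complex (ORC), on which CDC6 and CDT1 load the ring-shaped MCM2 to MCM7 helicase while geminin (GMNN) holds CDT1 back. In S phase the CDC7 kinase with its partner DBF4 and the cyclin-dependent kinases switch the helicase on, CDC45 and the GINS complex join it, and the polymerases follow. Genes of this set are classical targets of the E2F transcription factors, which act as cells pass from G1 into S phase. Platinum crosslinks block moving forks, and TIMELESS, TIPIN and claspin (CLSPN) hold the helicase and polymerases together there and relay the stall to the ATR checkpoint kinase. In a culture, a smaller share of cells in S phase and less RNA per cell cannot be told apart.

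Promoter sequences of 4 genes are shown as examples of the patterns described below. CLSPN had the largest rise in BxPC3-R, POLA1 moved in opposite directions in the derivatives, CDC6 rose in both, and MCM2 passed the test in neither derivative but differed between the parental lines. Each holds 8 letters of an E2F type, in capitals, as did 24 of the 45 genes with a promoter. Of the other genes that changed in opposite directions, POLE and LIG1 held such letters too. PRIM1, RFC5 and TIMELESS held none in their promoters, and no promoter was at hand for DNA2. The fall of POLA1 in AsPC1-R depended on single arrays. The sequences are those of RefSeq on the GRCh38.p14 assembly, from 170 bases before to 20 bases after the annotated start of the gene, 5′ to 3′ on the strand of the gene. CLSPN lies on the minus strand of chromosome 1 at chr1:35769959-35770148. The letters GCGGGAAA, which read TTTCCCGC on the opposite strand, begin 5 bases before its start.
CLSPN: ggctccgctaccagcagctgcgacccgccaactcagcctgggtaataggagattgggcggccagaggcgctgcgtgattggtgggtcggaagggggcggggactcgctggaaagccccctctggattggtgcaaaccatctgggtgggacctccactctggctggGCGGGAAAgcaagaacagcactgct
POLA1 lies on the plus strand of chromosome X at chrX:24693748-24693937. The letters GCGCCAAA, which read TTTGGCGC on the opposite strand, begin 137 bases before its start.
POLA1: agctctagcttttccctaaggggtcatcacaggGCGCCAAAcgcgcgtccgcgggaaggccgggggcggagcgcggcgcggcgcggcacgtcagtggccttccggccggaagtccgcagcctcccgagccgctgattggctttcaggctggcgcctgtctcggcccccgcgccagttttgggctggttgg
CDC6 lies on the plus strand of chromosome 17 at chr17:40287709-40287898, and TTTGGCGC begins 7 bases after its start.
CDC6: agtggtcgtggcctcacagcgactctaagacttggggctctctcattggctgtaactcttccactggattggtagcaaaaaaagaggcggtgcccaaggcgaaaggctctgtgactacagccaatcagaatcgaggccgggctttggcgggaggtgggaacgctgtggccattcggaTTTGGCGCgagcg
MCM2 lies on the plus strand of chromosome 3 at chr3:127598241-127598430, where TTTCGCGC begins 2 bases after the start. The letters GCGCGAAA, which overlap it and read TTTCGCGC on the opposite strand, begin 6 bases after the start.
MCM2: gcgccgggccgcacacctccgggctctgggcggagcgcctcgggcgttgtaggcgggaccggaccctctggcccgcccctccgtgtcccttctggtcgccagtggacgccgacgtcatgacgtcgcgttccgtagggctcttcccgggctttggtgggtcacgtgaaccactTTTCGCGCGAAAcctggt

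E2F-type letters were frequent in these promoters whether or not the gene rose in BxPC3-R. RefSeq promoters of 300 bases (250 before and 50 after the start) were at hand for 45 of the 53 genes, and TTTCCCGC, TTTGGCGC, TTTCGCGC or TTTGCCGC stood on either strand in 24 of the 45 (53.3%). The share was 5.51% of the 14237 measured genes with a promoter and 3.31% of all 35116 promoters in the table. Among the genes that rose in BxPC3-R, 12 of 22 with a promoter held the letters (54.5%), and among those that did not rise, 12 of 23 did (52.2%). CCAAT, the letters bound by the NF-Y factor, stood on either strand in 27 of 45 (60%), against 42.2% of measured genes. TTTGAA, the core of an element found in many genes of G2 and mitosis, stood in 1 of 45 (2.22%), against 15.7% of measured genes. A match is a description of the letters in the window, not a bound site.

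The arrays were alike in overall level, with medians of 6.48 to 6.65 on the log2 scale of the deposited values and a lowest correlation within a group of 0.991. Of genes deleted in BxPC3, CDKN2A read 5.75 in BxPC3-R and 6.22 in BxPC3, and SMAD4 read 4.63 in BxPC3-R and 4.70 in BxPC3. The highest of these, 6.22, was taken as a cautious bound for levels without transcript. Of the 53 genes, 52 had all group means above it, and DBF4 had means of 6.06 in AsPC1-R, 6.39 in AsPC1, 6.24 in BxPC3-R and 6.19 in BxPC3, around that bound but above the levels of SMAD4, so the size of its changes is uncertain. All 9 measured markers of ductal epithelium lay above 6.22 in every group. BxPC3 replicate 2 stood apart. Of the 50 genes that most exceeded BxPC3-R in AsPC1, all 50 read higher on it than on either other BxPC3 array, with a median excess of 0.83. For the replication genes its median excess over the mean of the other BxPC3 arrays was 0.10. That of BxPC3 replicate 1 was -0.17, and that of AsPC1 replicate 3 over the other AsPC1 arrays was 0.11. Counts of the replication genes without BxPC3 replicate 2 are given beside each comparison that uses it.

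BxPC3-R stood above the other groups for most of the replication genes. Its mean was the highest of the 4 groups for 42 of 53 genes (79.2%), against 21.2% of all genes, and its 3 arrays lay above all 9 others for 28 (52.8%), against 9.15% of all genes. The mean over the 53 genes was 9.16 ± 0.03 in AsPC1-R and 9.20 ± 0.08 in AsPC1, against 9.76 ± 0.05 in BxPC3-R and 9.44 ± 0.09 in BxPC3 (log2 level, SD, n = 3 arrays). AsPC1-R had the lowest mean for 25 genes and AsPC1 for 21, against 20.5% of all genes in each case (47.2% and 39.6% of the 53). The heat map of levels by array shows this as a red block in the BxPC3-R columns.

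**Figure D1:**
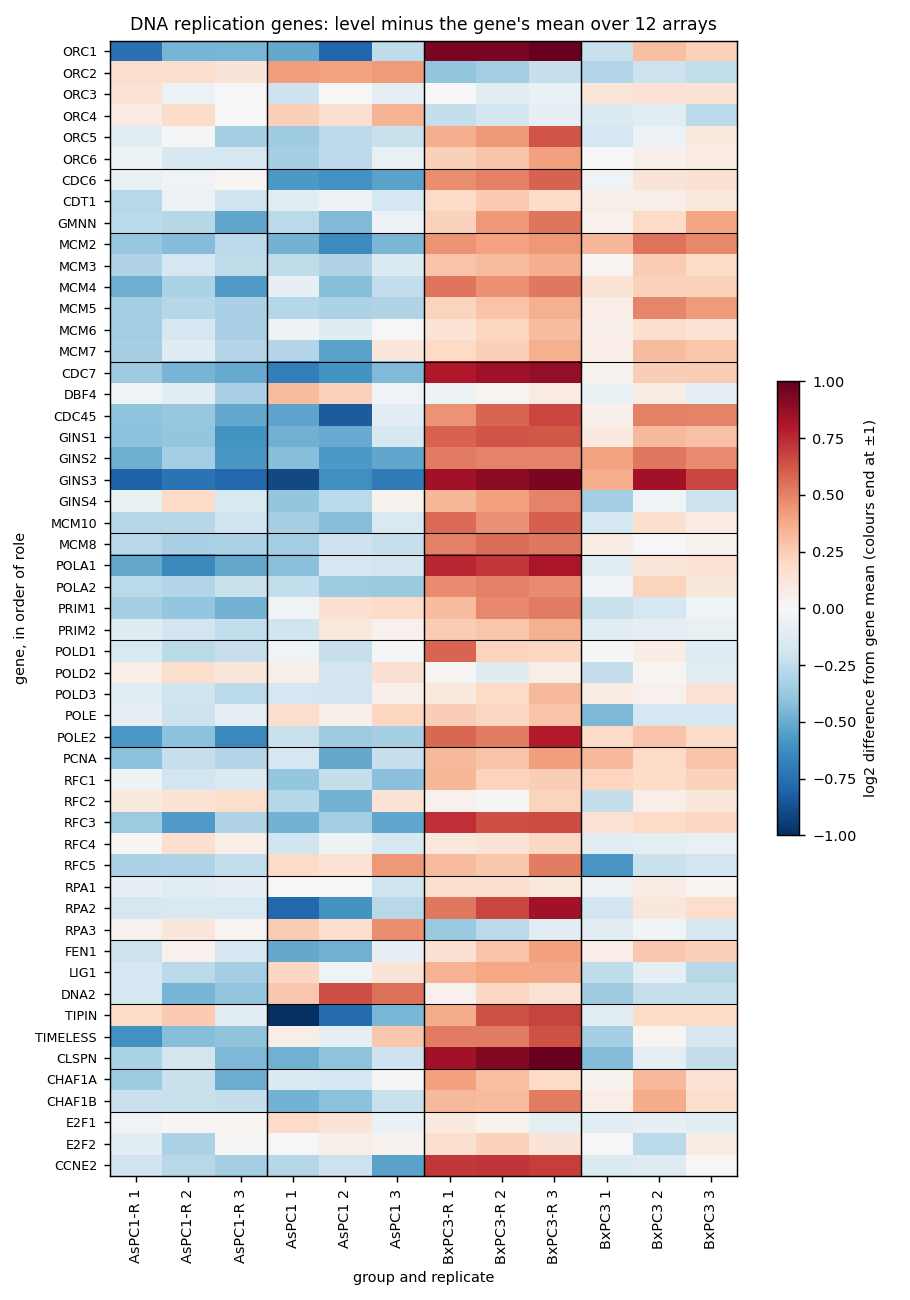
Level of each of the 53 DNA replication genes (rows, in order of role) on each of the 12 arrays (columns), as the log2 difference from the gene's own mean over the arrays, with colours ending at ±1. The BxPC3-R arrays are red for most genes, with 42 of 53 genes highest in that group, and the AsPC1-R and AsPC1 arrays are mostly blue.

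The derivative BxPC3-R was first set against its parental line BxPC3. Of the 53 genes, 27 rose and 0 fell by limma at an adjusted p under 0.05, while 9.75% of all 18417 genes rose and 11.0% fell (20.8% in all). The median change of the 53 was 0.27 (log2), against 0.02 over all genes, and the 3 BxPC3-R arrays lay above all 3 BxPC3 arrays for 32 genes and below them for 1 (19.4% and 18.8% of all genes, 38.2% in all). Changes below are log2 differences with the standard error from limma in parentheses. All 3 fork protection genes and all 4 genes of DNA polymerase alpha-primase rose, but only 1 of the 6 MCM2 to MCM7 helicase genes did.

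CLSPN, which carries the stall signal from ATR to the kinase CHK1, changed most. It read 11.51, 11.59 and 11.70 in the BxPC3-R arrays, against 10.23, 10.57 and 10.43 in the BxPC3 arrays, a rise of 1.19 (0.11; adjusted p = 3.87e-06), or 2.28-fold. A second probe set of CLSPN, not used in the counts, had means of 9.22 in BxPC3-R and 8.19 in BxPC3. TIMELESS read 9.40, 9.40 and 9.52 in BxPC3-R, against 8.55, 8.91 and 8.71 in BxPC3, a rise of 0.71 (0.11; adjusted p = 0.000384). Its partner TIPIN rose by 0.47 (0.15; adjusted p = 0.0435), a call that ended when any of 7 arrays was left out, with an adjusted p of up to 0.163 without BxPC3 replicate 1. For each of the 3 genes the lowest BxPC3-R array lay above the highest BxPC3 array.

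At origins, the rise was uneven. ORC1, an ATPase subunit of ORC whose level follows the cell cycle, read 8.93, 8.93 and 8.99 in BxPC3-R, against 7.75, 8.28 and 8.21 in BxPC3, a rise of 0.87 (0.15; adjusted p = 0.000762). ORC5 rose by 0.52 (0.11) and ORC6 by 0.27 (0.09), while the changes of ORC2, ORC3 and ORC4, from -0.20 to 0.00, did not pass the test. The loader CDC6 read 11.77, 11.80 and 11.89 in BxPC3-R, against 11.27, 11.43 and 11.45 in BxPC3, a rise of 0.44 (0.08; adjusted p = 0.00101). CDT1 at 0.14 (0.08) and its inhibitor GMNN at 0.19 (0.12) did not pass. Within the helicase MCM4 rose by 0.30 (0.10; adjusted p = 0.0401), and MCM2, MCM3, MCM5, MCM6 and MCM7, at -0.04 to 0.17, did not pass. MCM8, which works with MCM9 in recombination repair rather than in the helicase ring, rose by 0.49 (0.07; adjusted p = 0.00021).

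Of the 8 genes of helicase activation, all 8 had changes above 0 and 4 passed the test. CDC7, the kinase that fires origins, read 10.85, 10.90 and 10.93 in BxPC3-R, against 10.09, 10.30 and 10.31 in BxPC3, a rise of 0.66 (0.09; adjusted p = 0.000113), and the arrays of the groups did not overlap. Its activator DBF4 stood at 0.05 (0.11) and did not pass. Of the GINS subunits, GINS4 rose by 0.61 (0.12) and GINS1 by 0.38 (0.10), while GINS2 at 0.03 (0.08) and GINS3 at 0.27 (0.11) did not pass. MCM10, which helps the assembled helicase to start, rose by 0.52 (0.10), and CDC45 at 0.21 (0.16) did not pass.

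Genes of strand synthesis made up the largest block. POLA1, the catalytic subunit of polymerase alpha, read 11.15, 11.10 and 11.20 in BxPC3-R, against 10.29, 10.51 and 10.53 in BxPC3, a rise of 0.71 (0.10; adjusted p = 0.000109). The primase subunits PRIM1 and PRIM2 rose by 0.58 (0.09) and 0.39 (0.09), and POLA2 by 0.38 (0.08). For the polymerases that extend the primers, POLE of the leading strand rose by 0.51 (0.09), its accessory subunit POLE2 by 0.40 (0.09) and POLD1 by 0.36 (0.11), while POLD2 and POLD3, at 0.09 and 0.13, did not pass. RFC5, a subunit of the clamp loader, read 9.34, 9.30 and 9.54 in BxPC3-R, against 8.44, 8.81 and 8.84 in BxPC3, a rise of 0.70 (0.12; adjusted p = 0.000574). RFC3 and RFC4 rose by 0.49 (0.09) and 0.24 (0.08), whereas RFC1, RFC2 and the clamp PCNA itself, at 0.06 to 0.11, did not pass.

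RPA2, a subunit of the complex that coats unwound DNA, read 9.03, 9.18 and 9.35 in BxPC3-R, against 8.31, 8.62 and 8.68 in BxPC3, a rise of 0.65 (0.13; adjusted p = 0.00249). The other subunits RPA1 and RPA3 stood at 0.12 and -0.14 and did not pass. LIG1, the ligase that seals Okazaki fragments, rose by 0.58 (0.09) and DNA2, a nuclease and helicase that trims their long flaps, by 0.41 (0.11), while the flap nuclease FEN1 at 0.09 (0.12) did not pass. CCNE2, a cyclin that activates CDK2 at the entry into S phase, read 11.14, 11.15 and 11.13 in BxPC3-R, against 10.30, 10.31 and 10.43 in BxPC3, a rise of 0.79 (0.09; adjusted p = 2.78e-05). The transcription factor genes E2F1 and E2F2, at 0.11 (0.09) and 0.24 (0.10), and the chromatin assembly genes CHAF1A and CHAF1B, at 0.14 and 0.18, did not pass.

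Of the 27 calls, 20 held when any 1 of the 12 arrays was left out, all but DNA2, GINS1, MCM4, ORC6, POLD1, RFC4 and TIPIN. The lowest count was 20, without BxPC3 replicate 1, on which the 53 genes had the lowest mean of that group (9.34, against 9.51 and 9.48), and without BxPC3 replicate 2 it was 24 with 0 falls, when GINS3 entered and MCM4, ORC6, RFC4 and TIPIN did not pass.

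**Figure D2:**
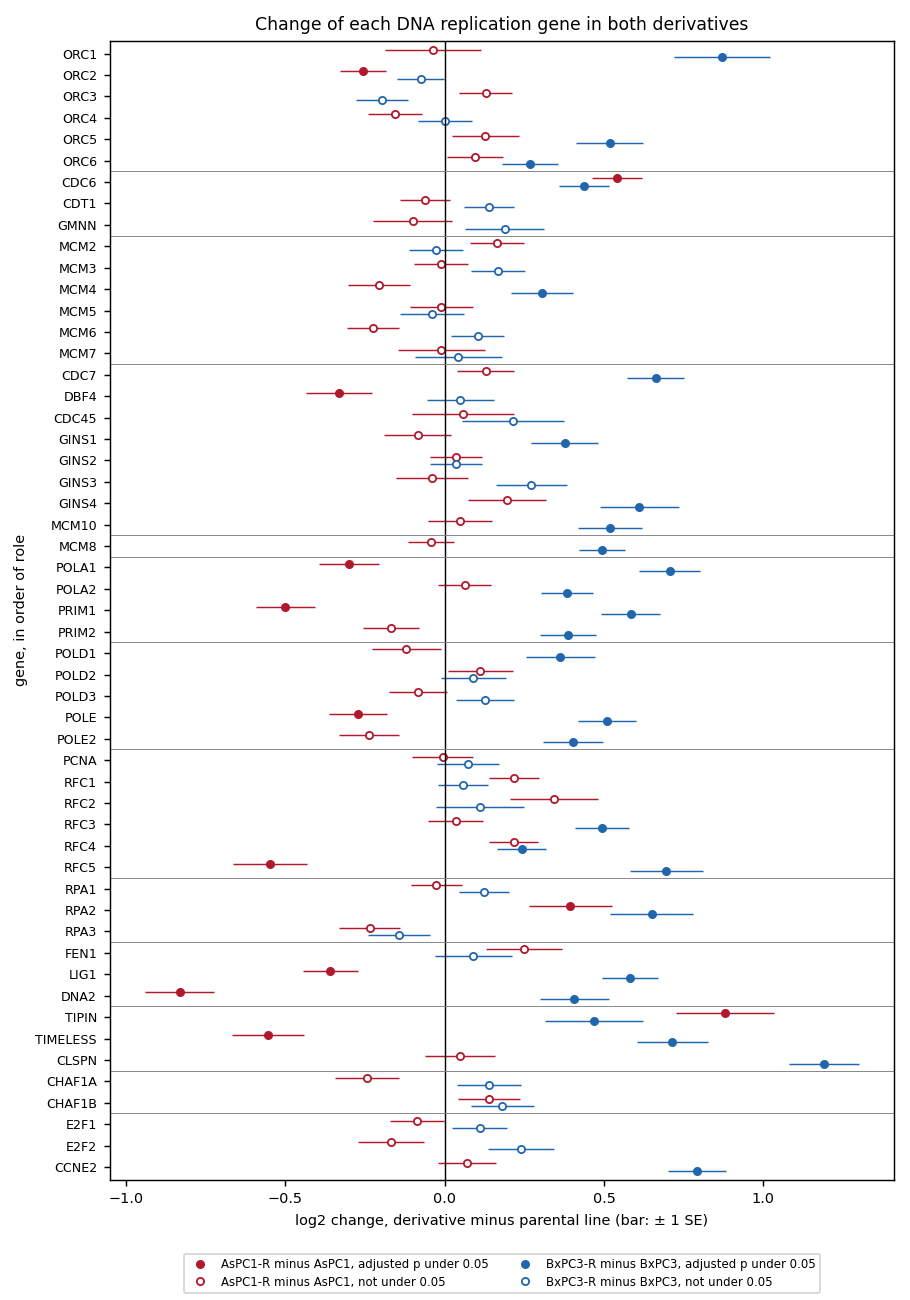
Log2 change of each gene (rows, in order of role) in AsPC1-R over AsPC1 (red) and in BxPC3-R over BxPC3 (blue), with bars of ±1 standard error and filled points where limma's adjusted p was under 0.05. The blue points lie mostly right of 0, with 27 rises and 0 falls, whereas the filled red points are 3 rises and 9 falls.

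The derivative AsPC1-R was then set against AsPC1. Of the 53 genes, 3 rose and 9 fell, while 11.6% of all genes rose and 8.64% fell, and the median change was -0.03, against -0.05 over all genes. The number called, 12 of 53 or 22.6%, was near the 20.3% of all genes called in either direction. With each array centred on its own median, 5 genes rose and 5 fell. The AsPC1-R arrays lay above all AsPC1 arrays for 6 genes and below them for 13 (16.1% and 17.3% of all genes, 33.4% in all).

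The rises were those of TIPIN, CDC6 and RPA2. TIPIN read 10.97, 11.05 and 10.68 in AsPC1-R, against 9.71, 10.02 and 10.33 in AsPC1, a rise of 0.88 (0.15; adjusted p = 0.000911). CDC6 read 11.23, 11.27 and 11.32 in AsPC1-R, against 10.73, 10.69 and 10.77 in AsPC1, a rise of 0.54 (0.08; adjusted p = 0.000207). RPA2 read 8.34, 8.35 and 8.36 in AsPC1-R, against 7.72, 7.91 and 8.23 in AsPC1, a rise of 0.39 (0.13; adjusted p = 0.0482). The groups did not overlap for any of the 3 genes, but the RPA2 call ended when any of 9 arrays was left out, with an adjusted p of up to 0.185. These 3 genes rose in BxPC3-R too, and 1.27% of all genes rose in both derivatives.

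DNA2 had the largest fall. It read 9.20, 8.91 and 8.98 in AsPC1-R, against 9.64, 10.02 and 9.93 in AsPC1, and fell by 0.83 (0.11; adjusted p = 8.19e-05). TIMELESS read 8.28, 8.45 and 8.48 in AsPC1-R, against 8.94, 8.78 and 9.15 in AsPC1, and fell by 0.55 (0.11; adjusted p = 0.00286). RFC5 read 8.71, 8.72 and 8.78 in AsPC1-R, against 9.22, 9.18 and 9.46 in AsPC1, and fell by 0.55 (0.12; adjusted p = 0.00369). In each of these genes the highest AsPC1-R array lay below the lowest AsPC1 array, and TIMELESS fell while its partner TIPIN rose. PRIM1 read 10.27, 10.22 and 10.13 in AsPC1-R, against 10.57, 10.76 and 10.81 in AsPC1, and fell by 0.50 (0.09; adjusted p = 0.0015). LIG1 read 7.72, 7.62 and 7.56 in AsPC1-R, against 8.10, 7.85 and 8.03 in AsPC1, and fell by 0.36 (0.09; adjusted p = 0.00948).

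Smaller falls were those of DBF4 by 0.33 (0.11), at levels around the bound of 6.22, of POLA1 by 0.30 (0.10), of POLE by 0.27 (0.09) and of ORC2 by 0.26 (0.07). These 4 calls and that of RPA2 depended on single arrays, and the other 7 held when any 1 array was left out. Without AsPC1-R replicate 3, and likewise with only these 2 groups fitted, the count was 7, with 2 rises and 5 falls. The helicase genes MCM2 to MCM7 stood between -0.23 and 0.16, and none passed. CDT1, GMNN, ORC1, GINS2, PCNA, E2F1, E2F2 and CCNE2, at -0.17 to 0.07, did not pass, nor did CLSPN at 0.05 (0.11), which led in BxPC3-R.

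The third comparison tested whether the change differed between the lines, as the change in AsPC1-R minus the change in BxPC3-R. It was below 0 for 19 of the 53 genes and above 0 for 0 by limma at an adjusted p under 0.05, while 11.3% of all genes were called below and 14.1% above (25.4% in all). The median difference was -0.31, against -0.07 over all genes. The size was largest for TIMELESS at -1.27 (0.16; adjusted p = 4.53e-05), followed by RFC5 and DNA2, both at -1.24, and CLSPN at -1.14. PRIM1 at -1.08 (0.13) had the smallest adjusted p, 3.34e-05, and POLA1 at -1.01, LIG1 at -0.94 and POLE at -0.78 followed. For 7 genes, DNA2, LIG1, POLA1, POLE, PRIM1, RFC5 and TIMELESS, the fall in AsPC1-R and the rise in BxPC3-R each passed the test. That is 13.2% of the 53, against 1.95% of all genes. The falls of POLA1 and POLE in AsPC1-R did not pass when any of 7 and any of 10 arrays, respectively, was left out. POLE, PRIM1, RFC5 and TIMELESS lie on chromosome 12, where 10.7% of the measured genes did both. POLE shows the pattern at its weakest: it read 8.29, 8.17 and 8.28 in AsPC1-R and 8.55, 8.42 and 8.58 in AsPC1, against 8.62, 8.58 and 8.66 in BxPC3-R and 7.93, 8.20 and 8.20 in BxPC3.

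The other 11 of the 19 genes were ORC1 at -0.91, CCNE2 at -0.72, POLE2 at -0.64, PRIM2 at -0.56, MCM8 at -0.54, CDC7 at -0.53, MCM4 at -0.51, POLD1 at -0.48, MCM10 at -0.47 and GINS1 and RFC3, both at -0.46. All of these rose in BxPC3-R, and none passed in AsPC1-R. For CDC6 at 0.10 (0.11), TIPIN at 0.41 (0.22) and RPA2 at -0.25 (0.19) no difference between the derivatives was detected. Without AsPC1 replicate 3 the difference of TIPIN, at 0.57, passed by limma (adjusted p = 0.0467). The count was 21 without BxPC3 replicate 2, and 16 of the 19 calls held when any 1 array was left out, all but GINS1, MCM10 and POLD1.

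**Figure D3:**
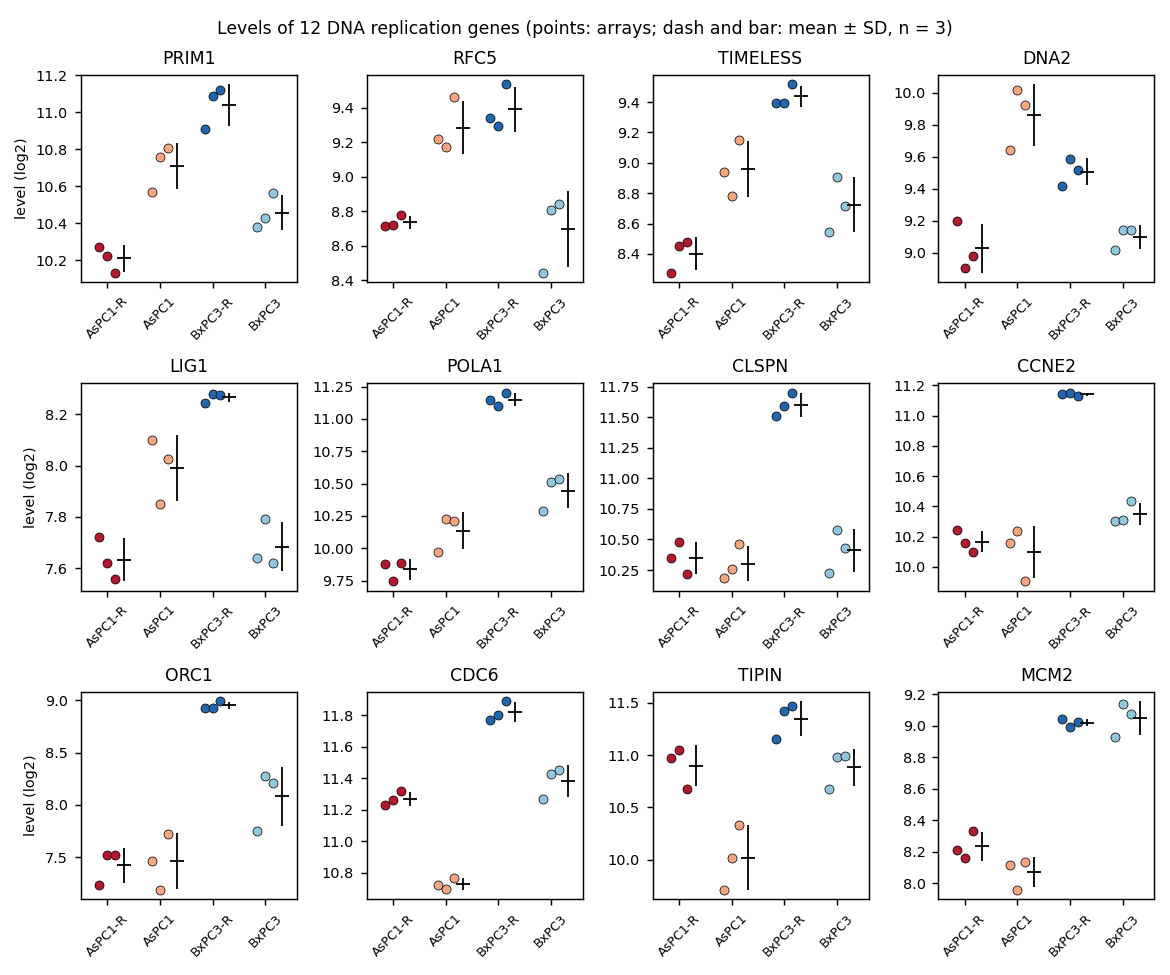
Log2 level of 12 genes on each array (points) with the mean and SD of each group (dash and bar, n = 3), for AsPC1-R, AsPC1, BxPC3-R and BxPC3 from left to right, with an axis range of its own in each panel. PRIM1, RFC5, TIMELESS, DNA2 and LIG1 are lower in AsPC1-R than in AsPC1 and higher in BxPC3-R than in BxPC3, CDC6 and TIPIN are higher in both derivatives, and MCM2 differs between AsPC1 and BxPC3 lines.

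The parental lines were then compared, AsPC1 against BxPC3. Of the 53 genes, 8 were higher and 29 lower in AsPC1, while 27.7% of all genes were higher and 22.9% lower (50.6% in all), and the median difference was -0.27, against 0.11 over all genes (0.07 with each array centred on its median). The arrays of the lines did not overlap for 39 genes, 9 higher and 30 lower in AsPC1 (30.3% and 24.0% of all genes, 54.3% in all). Helicase genes led: the 5 MCM genes other than MCM6 were lower, as were CDC45, CDC7, MCM10 and 3 of the 4 GINS genes.

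GINS3 read 6.46, 6.76 and 6.66 in AsPC1, against 7.73, 8.21 and 8.04 in BxPC3, a difference of -1.36 (0.11; adjusted p = 1.74e-07). MCM2 read 8.12, 7.96 and 8.14 in AsPC1, against 8.93, 9.14 and 9.08 in BxPC3, a difference of -0.98 (0.09; adjusted p = 3.29e-07). GINS2 read 9.10, 8.96 and 9.01 in AsPC1, against 9.93, 10.06 and 10.00 in BxPC3, a difference of -0.97 (0.08; adjusted p = 2.24e-07). These 3 subunits of the helicase and its cofactor were lower on every AsPC1 array than on any BxPC3 array. CDC45 read 9.19, 8.89 and 9.62 in AsPC1, against 9.77, 10.22 and 10.21 in BxPC3, a difference of -0.84 (0.16; adjusted p = 0.000639). CDC7 read 9.37, 9.46 and 9.61 in AsPC1, against the BxPC3 values above, a difference of -0.75 (0.09; adjusted p = 8.11e-06). TIPIN differed by -0.86 (0.15; adjusted p = 0.000326) on the values given above.

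Among the remaining helicase genes, MCM5 differed by -0.63 (0.10), MCM7 by -0.46 (0.14), MCM4 by -0.45 (0.10) and MCM3 by -0.38 (0.08), while MCM6 at -0.17 (0.08) did not pass. CDC6 at -0.65, RFC3, ORC1 and GINS1, each at -0.62, RPA2 and PCNA, both at -0.58, CHAF1B at -0.57, FEN1 and RFC1, both at -0.55, and POLE2 at -0.53 were also lower in AsPC1. GMNN at -0.47 (0.12) and CCNE2 at -0.25 (0.09) were lower as well, and CDT1, E2F1 and E2F2, at -0.19 to 0.18, did not pass.

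The 8 genes higher in AsPC1 were DNA2, ORC2, RFC5, ORC4, POLE, RPA3, LIG1 and PRIM1. This comparison shares its parental arrays with those of the derivatives. DNA2 differed by 0.76 (0.11; adjusted p = 4.45e-05). ORC2 read 10.45, 10.44 and 10.46 in AsPC1, against 9.74, 9.83 and 9.79 in BxPC3, a difference of 0.67 (0.07; adjusted p = 3.64e-06), with no overlap. RFC5 differed by 0.59 (0.12). Without BxPC3 replicate 2 the counts were 8 higher and 22 lower, and 29 of the 37 calls held when any 1 array was left out, all but CCNE2, CHAF1A, MCM7, MCM10, ORC3, ORC6, POLA1 and PRIM1.

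Between the derivatives, AsPC1-R was lower than BxPC3-R for 44 of the 53 genes and higher for 3, while 22.0% of all genes were lower and 21.3% higher (43.3% in all). The median difference was -0.60, against 0.03 over all genes, and the arrays did not overlap for 48 genes, 44 lower and 4 higher (27.1% and 28.3% of all genes, 55.4% in all). Every measured gene of the MCM2 to MCM7 helicase, of licensing, of polymerase alpha-primase, of fork protection, of Okazaki fragment processing and of chromatin assembly was lower in AsPC1-R. The largest differences were those of GINS3 at -1.67 (0.11), ORC1 at -1.53 (0.15), POLA1 at -1.32 (0.10), CDC7 at -1.28 (0.09) and CLSPN at -1.25 (0.11). GINS3, for example, read 6.56, 6.63 and 6.58 in AsPC1-R, against 8.21, 8.27 and 8.31 in BxPC3-R.

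POLE2 at -1.17, RFC3 and GINS1, both at -1.08, and TIMELESS at -1.04 followed, CDC45 read 9.29 ± 0.07 in AsPC1-R against 10.29 ± 0.11 in BxPC3-R (SD, n = 3), and CCNE2 and GINS2, both at -0.97, and MCM4 at -0.96 came next. The other helicase subunits stood at -0.79 for MCM2, -0.60 for MCM5, -0.56 for MCM3, -0.51 for MCM7 and -0.50 for MCM6. RPA2 and MCM8 differed by -0.84, PRIM1 by -0.83, MCM10 by -0.79, GMNN by -0.76, POLA2 by -0.75, PCNA by -0.65, CDC6 by -0.55, CDT1 by -0.39 and E2F2 by -0.31. The 3 genes higher in AsPC1-R were ORC2 at 0.48 (0.07), RPA3 at 0.31 (0.10) and ORC4 at 0.25 (0.09). DBF4, E2F1, ORC3, POLD2, RFC2 and RFC4, at -0.18 to 0.14, did not pass. Of the 47 calls, 40 held when any 1 array was left out, all but E2F2, FEN1, GINS4, ORC4, RPA1, RPA3 and TIPIN.

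Related lists, chosen like the 53 genes with earlier results of these data known, were set beside them. They are read against the 20.8% of all genes called in BxPC3-R (9.75% up, 11.0% down) and the 20.3% called in AsPC1-R (11.6% up, 8.64% down). Of 29 measured genes of other replisome and origin factors, 5 rose in BxPC3-R (17.2%, against 9.75% of all genes) and 0 fell (against 11.0%). Called in either direction were 17.2%, against 20.8% of all genes, and the median was 0.13. The rises were led by DSCC1 of an alternative clamp loader at 0.63 (0.09) and DONSON, a factor of helicase assembly, at 0.45 (0.09). In AsPC1-R 2 rose (6.90%, against 11.6% of all genes) and 5 fell (17.2%, against 8.64%), or 24.1% called in all, against 20.3%. Among the falls were DSCC1 at -0.37 (0.09) and MCM9, the partner of MCM8, at -0.35 (0.09). Of 10 genes of nucleotide supply, 4 rose and 1 fell in BxPC3-R, among them both subunits of ribonucleotide reductase, RRM2 by 0.47 (0.09) and RRM1 by 0.42 (0.07). SAMHD1, an enzyme that breaks down the DNA building blocks, changed in the opposite sense, with a rise of 1.24 (0.08) in AsPC1-R and a change of -0.42 (0.08) in BxPC3-R. Among 10 histone chaperone and supply genes 4 rose in BxPC3-R, HAT1, SUPT16H, SSRP1 and RBBP4, by 0.28 to 0.32, and 1 fell in AsPC1-R. Of 8 checkpoint genes none passed in BxPC3-R, and WEE1 at -0.46 (0.09) and ATR at -0.25 (0.08) fell in AsPC1-R.

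Genes of mitosis, which follows once the DNA is copied, had falls in AsPC1-R. Of 43 measured, 28 fell and 0 rose in AsPC1-R, with a median of -0.44. Among all genes 8.64% fell and 11.6% rose, with a median of -0.05, and among the 53 replication genes 9 fell, with a median of -0.03. The falls were led by the kinesin genes KIF14 at -0.93 (0.08) and CENPE at -0.86 (0.09) and the kinetochore gene NUF2 at -0.87 (0.09). In BxPC3-R 3 mitosis genes rose and 4 fell (16.3% called, near the 20.8% of all genes), with a median of -0.03. The mean over the 43 was 9.87 ± 0.03 in AsPC1-R and 10.31 ± 0.07 in AsPC1, against 10.16 ± 0.05 in BxPC3-R and 10.18 ± 0.01 in BxPC3 (SD, n = 3 arrays). The share of cells in each phase was not measured, and its part in these changes was not tested.

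**Figure D4:**
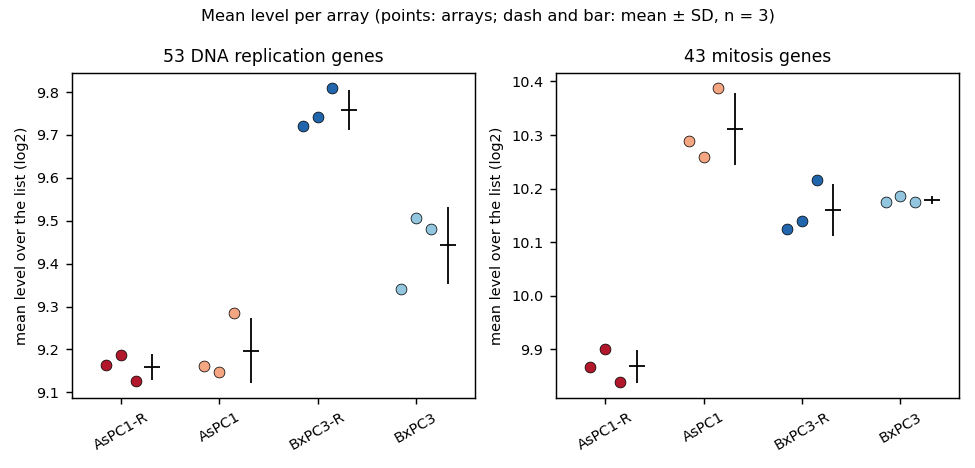
Mean log2 level over the 53 DNA replication genes (left) and over 43 mitosis genes (right) on each array (points), with the mean and SD of each group (dash and bar, n = 3). The replication mean is highest on the 3 BxPC3-R arrays, whereas the mitosis mean is lowest on the 3 AsPC1-R arrays.

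The 53 genes lie on 20 chromosomes, and those that rose in BxPC3-R lie on 16. All 4 on chromosome 12, PRIM1, POLE, RFC5 and TIMELESS, fell in AsPC1-R and rose in BxPC3-R. Of the 982 measured genes of chromosome 12, 19.7% fell in AsPC1-R, 28.6% rose in BxPC3-R and 10.7% did both. Over all genes these shares were 8.64%, 9.75% and 1.95%. The part of the chromosome in the changes of these 4 genes was not tested. The other 3 genes with opposite changes lie elsewhere, DNA2 on chromosome 10, LIG1 on chromosome 19 and POLA1 on the X chromosome. On chromosome 1, 4 of 5 replication genes rose in BxPC3-R, against 27 of all 53. Among the 1866 measured genes of that chromosome 16.4% rose, against 9.75% of all genes.

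Some markers of other cell types read high in every group. Counts of changed markers are read against all genes, of which 9.75% rose and 11.0% fell in BxPC3-R. In AsPC1-R 11.6% of all genes rose and 8.64% fell. Of the 9 measured ductal markers, 3 rose and 2 fell in BxPC3-R, and 1 rose and 2 fell in AsPC1-R. Of the 8 endothelial markers, 3 lay above 6.22 in AsPC1-R, 2 in AsPC1, 3 in BxPC3-R and 5 in BxPC3, and the median of the list was 5.68 in AsPC1-R, 5.55 in AsPC1, 5.66 in BxPC3-R and 7.08 in BxPC3. In BxPC3-R 4 of the 8 fell and 0 rose, led by CDH5, which read 6.67 there, against 9.34 in BxPC3, and in AsPC1-R 1 rose. Of the 10 fibroblast markers, 4 lay above 6.22 in AsPC1-R, 5 in AsPC1, 5 in BxPC3-R and 4 in BxPC3. In BxPC3-R 3 of them rose and 1 fell, with LUM at 1.53 (0.22), PDGFRA at 1.21 (0.13), FAP at 0.73 (0.21) and ACTA2 at -1.41 (0.09). In AsPC1-R LUM stood at -1.03 (0.22), with a level of 10.51, against 11.55 in AsPC1, and ACTA2 rose by 0.63 (0.09). Of the 10 leukocyte markers 2 rose in AsPC1-R and 2 fell in BxPC3-R, among them CD68, which read 10.83 in AsPC1-R and 10.11 in AsPC1, against 8.53 in BxPC3-R and 9.25 in BxPC3. LYZ read 12.15 in AsPC1-R and 12.21 in AsPC1, against 4.80 in BxPC3-R and 5.69 in BxPC3. The BxPC3 means of these markers include replicate 2, which stood apart for genes high in AsPC1, and are not given without it. Of 5 markers of acinar and endocrine pancreas, 1 fell in AsPC1-R and 0 changed in BxPC3-R. The part of these genes in the changes described above was not tested.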

How the data were processed

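RNA of the 4 cell lines was hybridized to Affymetrix arrays, 3 per line. The deposited values are log2 levels per probe set, made by the authors with Affymetrix Expression Console and RMA per the submitters' processing notes (versions and genome build not given in the sources used here). The log2 scale was checked from their range. Of 33297 probe sets, 19460 carried 1 gene symbol, 1754 several and 12083 none in the probe table, which gave 18417 genes. No gene was filtered out. The values carry no measure of depth, so the number of arrays limits the precision.

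Changes were fitted with limma 3.58.1 in R 4.3.3 (lmFit and eBayes, all 12 arrays, a mean per group, 8 residual and 5.47 prior degrees of freedom), two-sided, with Benjamini-Hochberg adjustment over the 18417 genes and a threshold of 0.05. The fit was tested on simulated data. Promoters came from RefSeq (GRCh38.p14), and 8 of the 53 genes had none there.

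The 53 genes, the other lists and the tests were chosen with earlier results of these data known. Genes named were every called gene for a comparison with at most 20 calls, otherwise the 20 with the largest change, with the MCM, licensing and S-phase genes in any case. Array values are given for the 8 largest called changes in each derivative, the 8 smallest adjusted p-values for their difference and the 8 largest differences between the parental lines. Of other lists up to 4 called genes per comparison were named. The alternatives left out each array in turn, took the replicate number into the model as a block, dropped dim genes, repeated the quantile normalization, centred arrays on their medians, used a mean of a gene's probe sets, weighted the arrays, fitted just the groups of a comparison, or ran eBayes with a trend and robustly.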

Additional observations from a re-analysis of the deposited data

Results flagged for a closer look

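For 19 of the 53 genes the change in AsPC1-R and the change in BxPC3-R differed by a test of the difference itself (limma, adjusted p under 0.05), all with the lower change in AsPC1-R. In log2 units the change in AsPC1-R minus the change in BxPC3-R was -1.27 for TIMELESS, -1.24 for RFC5, -1.24 for DNA2, -1.14 for CLSPN, -1.08 for PRIM1, -1.01 for POLA1 and -0.94 for LIG1. It was -0.91 for ORC1, -0.78 for POLE, -0.72 for CCNE2, -0.64 for POLE2, -0.56 for PRIM2, -0.54 for MCM8 and -0.53 for CDC7. Closer to the threshold were MCM4 at -0.51 (adjusted p = 0.014), POLD1 at -0.48 (0.0322), MCM10 at -0.47 (0.0253), GINS1 at -0.46 (0.0347) and RFC3 at -0.46 (0.0127).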

How the results depend on the processing

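No called change reversed under any alternative. For AsPC1-R against AsPC1 the 12 calls became 7 when only these groups were fitted (2 up, 5 down), 10 with arrays centred on their medians (5 up, 5 down) and 17 with array weights, and leaving out each array gave 7 to 12; the cause was not tested. Leaving out each array gave 20 to 27 calls for BxPC3-R against BxPC3, 16 to 22 for the difference between the changes, 30 to 39 for AsPC1 against BxPC3 and 43 to 47 for AsPC1-R against BxPC3-R. The lowest were without BxPC3 replicate 1 (20 and 16), BxPC3 replicate 2 (30) and AsPC1-R replicate 1 (43). In BxPC3-R the other alternatives gave 25 to 29 calls. With array weights 6356 of all genes were called in BxPC3-R, against 3826 without them.

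With the replicate number as a block the calls numbered 25 in BxPC3-R, 11 in AsPC1-R, 19 for the difference between these changes, 37 between the parental lines and 47 between the derivatives, and POLE in AsPC1-R and MCM4 and ORC6 in BxPC3-R lost theirs. Same-numbered samples deviated together with correlations of -0.24 to 0.34, not all over 0.1 in any pair of groups. They were highest between AsPC1 and BxPC3-R, at 0.09, 0.15 and 0.34. These values cannot decide whether same-numbered samples shared a batch or day, and the labels give only a number.

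Across the alternatives 23 to 32 of the mitosis genes fell in AsPC1-R and 0 or 1 rose. No separate measure of background was used here, so changes close to the level of CDKN2A in BxPC3 are uncertain in size.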

Other observations

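Genes of E2F and G1 to S control changed in both directions. Of 18 measured, 5 rose and 3 fell in BxPC3-R (44.4% called, against 20.8% of all genes), with E2F5 at -1.24 (0.12), the repressor gene E2F7 at 0.81 (0.10), the E2F partner TFDP2 at -0.57 (0.09) and CDK2, the kinase bound by cyclin E, at 0.57 (0.11) (log2 change with limma's standard error). In AsPC1-R 1 rose and 4 fell (27.8% called, against 20.3% of all genes). CDKN1A, the inhibitor p21, rose by 0.51 (0.11), and CDKN1B, the inhibitor p27, stood at -0.57 (0.10), E2F8 at -0.53 (0.08) and cyclin A2 (CCNA2) at -0.52 (0.07). Between the parental lines 5 of the 18 were higher and 11 lower in AsPC1 (88.9% called, against 50.6% of all genes), among them SKP2, which marks p27 for breakdown, at -0.95 (0.07), and E2F6 at 1.08 (0.09).

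SAMHD1 differed by -2.82 (0.08) in AsPC1 against BxPC3, and by -1.16 (0.08) in AsPC1-R against BxPC3-R. RNASEH2B, a subunit of the nuclease that removes ribonucleotides from DNA, differed by -0.99 (0.11) in AsPC1 against BxPC3 and by -1.38 (0.11) in AsPC1-R against BxPC3-R.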
